A study of Homo sapiens with 15 samples.

Results

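Neuroendocrine plasticity markers are genes whose expression is followed when prostate cancer cells move from a luminal, androgen-driven state towards a neuronal or hormone-secreting one. The markers studied here were named by symbol: the granule proteins CHGA, CHGB and SCG5, the neuropeptide precursor NTS, the enzyme ENO2, the vesicle protein SYP, the transcription factor INSM1, the splicing factor SRRM4 and the repressor REST. Of these 9 genes, 4 had a row among the 17272 genes of the expression table (ENO2, SYP, NTS and REST). CHGA, CHGB, INSM1, SRRM4 and SCG5 had no row under a current or older symbol and were not analysed here.

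The cells were LNCaP, an androgen-responsive human prostate cancer line derived from a lymph node metastasis. After 2 days in medium with charcoal-stripped serum, which lacks most steroids, all cultures received 1 nM of the synthetic androgen R1881, either with the solvent DMSO (10 libraries) or with 2 µM of the antiandrogen enzalutamide (5 libraries), and polyadenylated RNA was collected after 22 h. The group sizes are those of the sample labels, whereas the study's methods text gives them the other way round, and no group without androgen was among the libraries. The study calls the libraries biological replicates, but the labels do not say that they came from separate cultures, so the p-values below measure the spread between these libraries, which may be technical.

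In normal prostate, neuroendocrine cells are rare epithelial cells that store peptides such as neurotensin and the granins in dense-core granules. The neuronal gene programme is held down outside the nervous system by REST, a zinc-finger protein that brings histone-modifying corepressors to RE1 sites, and SRRM4 can lower REST activity by changing how its transcript is spliced. Prostate tumours that lose dependence on androgen signalling can acquire such markers, and ENO2, SYP and CHGA are those most often stained for in pathology.

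Expression was read as CPM (reads of a gene per 1000000 reads, on the authors' scale), and a gene was called where its adjusted p from limma, over all 17046 genes tested, lay under 0.05. In enzalutamide-treated cells NTS rose 4.09-fold (95% interval 3.60 to 4.64) and ENO2 rose 1.76-fold (1.66 to 1.87), SYP fell to 0.744 (0.653 to 0.849), and REST was not called (1.02-fold, 0.969 to 1.08). These folds are those of CPM + 0.5, and for the scarce SYP the ratio of the median CPM itself was lower, at 0.638. Thus 2 of the 4 measured markers were called higher and 1 was called lower. The treatment moved a large part of the transcriptome, with 62.5% of all genes tested called in either direction, 29.8% higher and 32.7% lower, so that a call by itself did not set the markers apart from other genes. Library sizes set to equal totals moved the share of higher genes among the called ones from 47.7% to 60.7%, while the directions of NTS, ENO2 and SYP were the same under that scaling.

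Depth and treatment were checked first. The libraries held 15830745 to 24316740 reads with R1881 and 21188661 to 25416052 reads with enzalutamide. The androgen-induced genes KLK2, TMPRSS2 and FKBP5 fell from means of 463, 850 and 1502 CPM to 15.2, 71.5 and 46.8 CPM (adjusted p in limma 1.04e-20, 6.59e-24 and 1.66e-25), and all 6 androgen-induced genes of the check were called lower. The luminal markers that define LNCaP were present, at summed levels of 6617 to 7107 CPM with R1881 and 4739 to 4916 CPM with enzalutamide. Among markers of other cells, 4 of 13 genes of stroma, endothelium and blood had a row (COL1A1, COL3A1, LUM and VWF), while COL1A2, DCN, PECAM1, PTPRC and the other 5 had no row. All 4 were called higher, against 29.8% of all genes tested, with log2 fold changes from 0.28 for VWF to 2.44 for COL3A1. Their sum was 9.04 to 13.4 CPM with R1881 and 24.1 to 30.0 CPM with enzalutamide. Of 8 neuronal and glial genes, MAP2 fell and MBP rose, their sum being 105 to 123 CPM against 69.5 to 77.5 CPM, and RBFOX3, DCX, GFAP and the other 3 had no row. Of 4 basal genes KRT14 alone had a row, at 0.706 to 1.44 CPM against 0.00 to 0.279 CPM. The part of these changes in the marker results was not tested, and in bulk RNA fewer cells that express a gene and less RNA of it per cell cannot be told apart.

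NTS encodes the precursor of neurotensin and neuromedin N, peptides that act on G-protein coupled receptors and are secreted from neurons, gut cells and neuroendocrine tumour cells. The gene lies on the plus strand of chromosome 12, from 85874295 to 85882992 on GRCh38 (GENCODE v44), with 4 exons in its main transcript. NTS was the marker that changed most, so the 250 bases before its start site, chr12:85874045-85874294 on the plus strand of GRCh38.p14 as given by RefSeq, are shown here, with a variant cyclic AMP response element (TGACATCA) and a run of overlapping TATATA matches in capitals.
NTS upstream: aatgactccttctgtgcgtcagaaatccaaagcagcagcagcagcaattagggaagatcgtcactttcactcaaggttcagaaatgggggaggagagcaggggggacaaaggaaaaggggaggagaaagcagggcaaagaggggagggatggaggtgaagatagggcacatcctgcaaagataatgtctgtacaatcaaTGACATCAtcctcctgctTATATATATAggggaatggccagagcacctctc
The element began 51 bases and the TATATA matches began 33, 31 and 29 bases before the start site. Among 35116 promoter windows of this length, 2.37% held TGACATCA and 3.73% held TATATA on either strand. The hexamer AGAACA of androgen response elements, present in 12.4% of all windows, was not matched in the NTS window, nor was the full palindrome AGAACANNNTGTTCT, which a single window of all held (0.00285%). A match describes letters in this window and no binding was measured.

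With R1881, NTS ranged from 20.5 to 31.3 CPM around a median of 27.3 CPM over the 10 libraries, that is from 341 to 668 reads. The 5 enzalutamide libraries gave 119, 95.8, 109, 109 and 114 CPM, from 2059 to 2897 reads. Every enzalutamide library thus lay above every R1881 library, and 64.5 CPM separated the nearest libraries of the groups. The means were 26.5 ± 3.86 CPM (SD, n = 10) and 109 ± 8.53 CPM (SD, n = 5). The log2 fold change was 2.03 with a standard error of 0.0885 (adjusted p = 2.60e-14 in limma), and the exact permutation test over 3003 regroupings of the libraries gave p = 0.000333 (two-sided), the smallest it can give. On the log2 scale 99.5% of all genes tested had a lower fold change, which placed NTS at rank 84 of 17046. Only 3.26% of genes were called higher by at least 2-fold, and NTS was the one marker among them.

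The R1881 libraries carry numbers 51 to 55 or 71 to 75 in their labels, and the enzalutamide libraries 81 to 85. NTS was lower in the libraries numbered 71 to 75 (20.5 to 27.9 CPM, mean 23.6 ± 2.90, n = 5) than in those numbered 51 to 55 (26.6 to 31.3 CPM, mean 29.4 ± 1.92, n = 5), with some overlap. Set against each series alone, the log2 fold change was 2.19 and 1.87 (adjusted p in limma 3.59e-12 and 1.10e-15). Since all enzalutamide libraries belong to a number series of their own, the series and the treatment cannot be told apart if the numbers mark a batch, which the labels do not say.

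**Figure D1:**
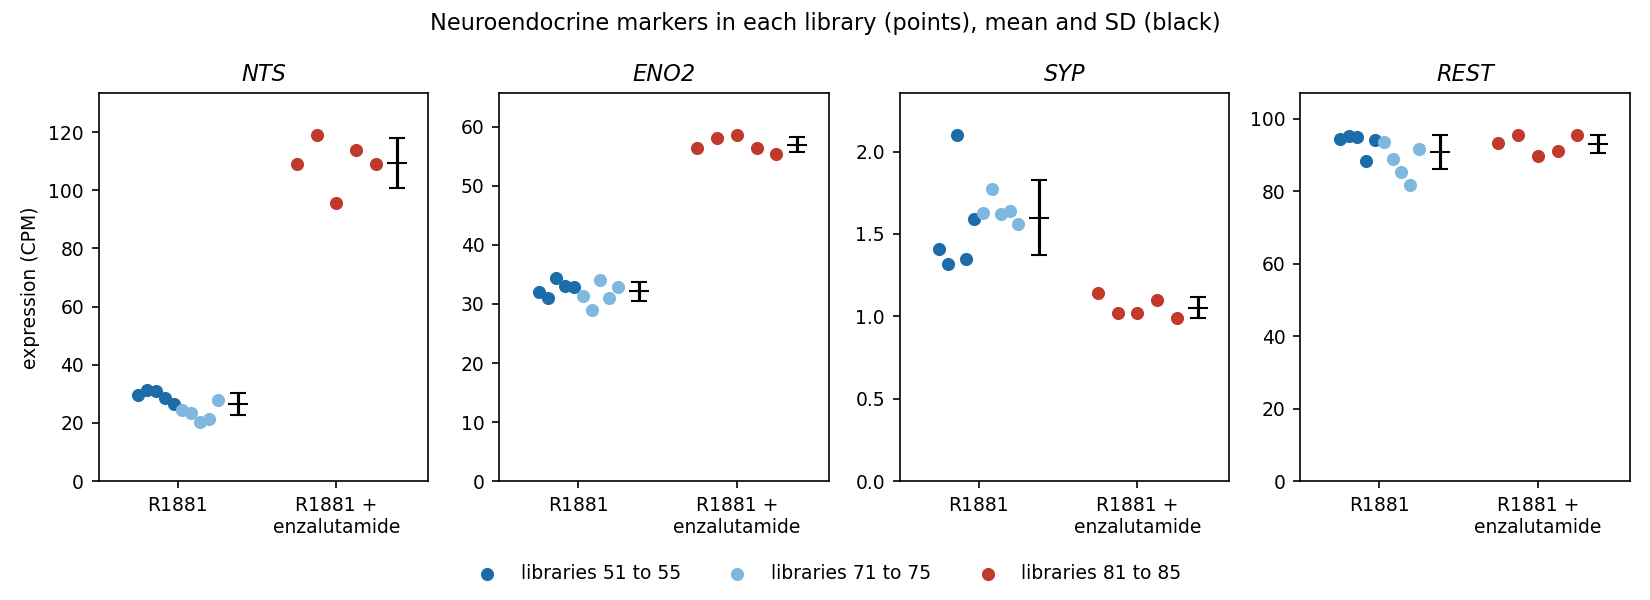
Expression of NTS, ENO2, SYP and REST in CPM (linear y axes that start at 0) in each library, by treatment on the x axis, with dark blue, light blue and red points for the library number series and black bars for the mean and SD of each treatment. The enzalutamide libraries lie above all R1881 libraries for NTS and ENO2, below all of them for SYP, and among them for REST.

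ENO2 encodes gamma-enolase, the neuron-specific form of the glycolytic enzyme that turns 2-phosphoglycerate into phosphoenolpyruvate. It lies on the plus strand of chromosome 12, from 6913745 to 6923698, with 12 exons. In the promoter window of RefSeq the only match to a searched motif was an AP-1 site (TGANTCA, held by 6.57% of all windows) that began 94 bases before the start site, shown in capitals with 10 bases on each side at chr12:6914476-6914502, plus strand, GRCh38.p14.
ENO2 AP-1: cggcagctccTGACTCAtcgggggctc
The whole of this promoter window lies in exons annotated to ENO2 itself in GENCODE, where the gene starts further upstream. In the R1881 libraries ENO2 ranged from 28.9 to 34.4 CPM with a median of 32.5 CPM (487 to 756 reads). The enzalutamide libraries held 58.1, 58.6, 56.4, 55.4 and 56.4 CPM (1233 to 1439 reads). The groups did not overlap, and a gap of 20.9 CPM lay between them. The means, with their SD, were 32.2 ± 1.66 CPM over 10 and 57.0 ± 1.31 CPM over 5 libraries, a log2 fold change of 0.82 with a standard error of 0.0418 (adjusted p = 4.10e-13 in limma, exact permutation p = 0.000333). ENO2 was the steadiest of the changed markers, with a coefficient of variation of 5.15% among R1881 and 2.3% among enzalutamide libraries, against 14.6% and 7.81% for NTS. A lower signed log2 fold change was seen for 94.9% of all genes tested (rank 865 from the top, where strongly lowered genes count as lower), and the change stayed under 2-fold. Median expression was 73.8% higher, as compared with 299% for NTS. LRRC23, which overlaps ENO2 on the same strand, was at means of 8.10 CPM with R1881 and 8.33 CPM with enzalutamide.

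SYP encodes synaptophysin, a membrane protein of synaptic vesicles. It lies on the minus strand of chromosome X, from 49187815 to 49200218, with 7 exons, and is overlapped on the opposite strand by SYP-AS1, which had no row. SYP was close to the lower end of detection, with 1.32 to 2.10 CPM and a median of 1.60 CPM in the R1881 libraries (23 to 40 reads). The enzalutamide libraries gave 1.02, 1.02, 1.14, 0.988 and 1.10 CPM (22 to 28 reads). All 5 lay below the lowest R1881 library, but by 0.181 CPM, which at these depths is a matter of a few reads. Means were 1.60 ± 0.225 CPM (SD, n = 10) and 1.05 ± 0.0613 CPM (SD, n = 5). The log2 fold change was -0.43 with a standard error of 0.0908 (adjusted p = 0.000369 in limma, exact permutation p = 0.000333). Because 0.5 was added to each value before the logarithm, this scale understates the change of a gene at such a level, and without the addition median expression dropped by 36.2%. DESeq2 on the recovered reads put the log2 fold change at -0.58 and the pseudocount of 1 put it at -0.33. A lower fold change than that of SYP was seen for 14.6% of all genes tested.

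In counts of groups that did not overlap, NTS and ENO2 were higher and SYP was lower, against 17.1% of all genes tested with non-overlapping higher and 20.1% with non-overlapping lower values. Lower calls of at least 2-fold were made for 4.19% of genes and for none of the markers. With 4 markers measured, these counts describe the markers and carry no test.

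REST, on the plus strand of chromosome 4 from 56907876 to 56966808 (4 exons), was the only repressor among the 4 markers with a row and was well expressed. With R1881 it ranged from 81.7 to 95.1 CPM around a median of 92.7 CPM (1299 to 2144 reads). With enzalutamide it stood at 95.5, 89.7, 93.2, 95.5 and 91.2 CPM (1928 to 2326 reads). The libraries of both groups overlapped almost fully. Means were 90.8 ± 4.66 CPM (SD, n = 10) and 93.0 ± 2.59 CPM (SD, n = 5), and the log2 fold change of 0.04 had a 95% interval of -0.05 to 0.12 (standard error 0.0389, adjusted p = 0.447 in limma, exact permutation p = 0.359). REST protein and the splicing of REST transcripts were not measured. The call depended on scaling, since with library totals set equal the log2 fold change was 0.13 (adjusted p = 0.00364), and against the R1881 libraries 51 to 55 alone it was -0.01 (adjusted p = 0.900). NOA1, which overlaps REST on the opposite strand, was at means of 58.4 and 57.1 CPM.

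The RefSeq windows gave further context for the markers' promoters, with 7 of the 9 markers having a window and REST having a pair of them. The left arm of the RE1 element to which REST binds (TTCAGCACC, in 0.288% of all windows) was not matched in any marker's window, and the shorter right arm (GGACAG, in 17.2%) was matched in REST itself, which also held an AP-1 match. CHGA held a full cyclic AMP response element (TGACGTCA, in 1.65% of windows) 54 bases and a TATATA match 31 bases before its start site. SYP, SRRM4 and SCG5 held none of the searched motifs. RE1 elements outside these windows were not searched.

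Per kilobase of exon, the order of the markers changed with treatment. With R1881 the median levels were 17.5 CPM per kb for NTS, 9.86 for REST, 7.59 for ENO2 and 0.230 for SYP. With enzalutamide they were 70.0 for NTS, 13.2 for ENO2, 9.90 for REST and 0.147 for SYP, so ENO2 passed REST while SYP stayed lowest. These lengths count all annotated exon bases of a gene, and a gene whose transcripts in LNCaP use fewer of them is placed too low.

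**Figure D2:**
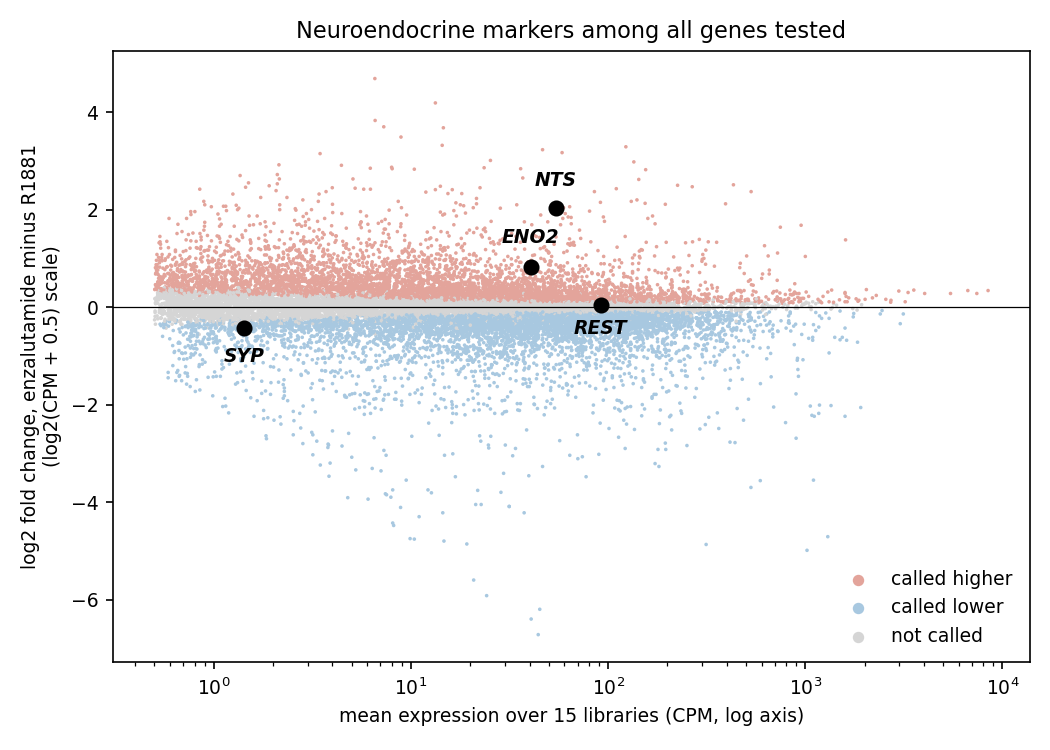
Log2 fold change (enzalutamide minus R1881, y axis, log2(CPM + 0.5) scale) against mean expression in CPM (log x axis) for all 17046 genes tested, 1 point each, red for genes called higher, blue for genes called lower and grey for the others, with the 4 markers in black. NTS at 2.03 lies near the upper edge, ENO2 at 0.82 within the upper part of the red points, SYP at -0.43 at the low end of expression and REST at 0.04 on the midline.

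Genes tied to the markers by function were taken from 11 lists. Of their 197 genes, 103 had a row and 99 were tested. In these lists 37 genes were called higher, 39 were called lower and 23 were not called, with a median log2 fold change of -0.05 against -0.01 over all genes tested. The lists as a whole thus moved in both directions, with 76.8% of their tested genes called, against 62.5% of all genes. Changes of at least 2-fold were called for 4 genes upwards and 7 downwards (4.04% and 7.07% of those tested, against 3.26% and 4.19% of all genes). The difference between these shares carries no test, since the lists were chosen with results of these data known.

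The neuroendocrine transcription factors that drive the state in tumours were mostly without a row. NEUROD1 and POU3F2, regulators of neural and neuroendocrine fate, had none. Of 24 genes 7 were tested, and 3 were called higher and 3 lower (median -0.11), against 29.8% and 32.7% of all genes tested. MYT1, a zinc-finger factor of neural differentiation, rose from 3.84 ± 0.697 to 10.7 ± 0.959 CPM (log2 fold change 1.39). SOX11, an embryonic neural factor, rose from 1.88 ± 0.313 to 4.28 ± 0.337 CPM (1.02). In the other direction HES6, which promotes neuronal differentiation, fell from 13.3 ± 2.66 to 6.35 ± 0.871 CPM (-1.0), and the MYC family member MYCL fell from 9.91 ± 0.706 to 6.07 ± 0.295 CPM (-0.66). ONECUT2 was called lower by a small margin (16.2 ± 1.24 against 14.3 ± 0.967 CPM, log2 fold change -0.18, adjusted p = 0.0178 in limma), and this call was lost with library totals set equal, against the R1881 libraries 71 to 75 alone and without enzalutamide replicate 2.

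Notch signalling restrains neuroendocrine fate through the repressors HES1 and HEY1. Both of these targets fell, HEY1 from 4.52 ± 0.459 to 1.94 ± 0.332 CPM (-1.05) and HES1 from 7.64 ± 0.499 to 4.73 ± 0.560 CPM (-0.64), and neither overlapped between the groups. The ligand DLL1 rose from 1.55 ± 0.393 to 2.71 ± 0.610 CPM (0.65) and the receptor NOTCH3 from 23.0 ± 3.79 to 34.3 ± 5.67 CPM (0.57), each with some overlap between the groups. In all, 4 of the 12 tested genes were called higher and 6 lower, against 29.8% and 32.7% of all genes tested, with a median of -0.04. Without overlap between the groups, 0 lay higher and 5 lower, against 17.1% and 20.1% of all genes tested.

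Because the granins CHGA, CHGB, SCG2 and SCG3 had no row, nor had the prohormone convertases PCSK1 and PCSK2 that cut propeptides such as that of NTS, the granule machinery was seen through 6 tested genes, of which 2 rose and 4 fell (median -0.22). CADPS2, which primes dense-core granules for release, fell from 27.7 to 34.2 CPM in the R1881 libraries to 6.61 to 8.56 CPM in the enzalutamide libraries (-1.99). PTPRN2, a granule membrane protein, fell from 6.75 ± 0.599 to 1.61 ± 0.257 CPM (-1.78). Neither gene overlapped between the groups. Both were chosen as the lowest of the list, so their direction, opposite to that of NTS, was set by the choice. Of the 6 tested genes 1 lay higher and 2 lower without overlap, against 17.1% and 20.1% of all genes tested. Calls were higher for 2 and lower for 4 of these 6, against 29.8% and 32.7% of all genes tested. PAM, which amidates peptide hormones, rose from 9.01 ± 0.788 to 14.5 ± 0.565 CPM (0.66), and the carboxypeptidase CPD rose by 0.23. CPE, the main carboxypeptidase of neuropeptide processing, was high in both groups (158 ± 8.50 and 146 ± 6.24 CPM), and its small decrease (-0.12, adjusted p = 0.0150 in limma) was lost under 4 of 29 alternatives.

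Of 20 other neuropeptides 4 had a row and 3 were tested, GAL and NMU not being called. NMB (neuromedin B) was called higher, at 2.26 ± 0.198 CPM with R1881 and 2.76 ± 0.328 CPM with enzalutamide (0.24, adjusted p = 0.0173 in limma). That call was lost against either R1881 number series alone and without enzalutamide replicate 3. Of the neurotensin receptors, the G-protein coupled NTSR1 and NTSR2 had no row, and the sorting receptor SORT1 was at 55.1 ± 4.95 CPM with R1881 and 59.5 ± 2.44 CPM with enzalutamide (log2 fold change 0.11, adjusted p = 0.0966 in limma). SORT1 was called higher with library totals set equal, with edgeR on the recovered reads and against the R1881 libraries 71 to 75 alone.

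Among 14 tested synaptic vesicle genes, the family context of SYP, 5 were called higher, 3 lower and 6 were not called (median 0.01). The shares called over all genes tested were 29.8% higher and 32.7% lower. RAB3B, a small GTPase of regulated secretion, fell from 221 ± 17.5 to 59.8 ± 3.31 CPM (-1.87). SYNGR2, a synaptogyrin found in many cell types, fell from 305 ± 54.6 to 152 ± 25.2 CPM (-1.0). The neuronal synaptogyrin SYNGR3 rose from 1.53 ± 0.336 to 3.07 ± 0.475 CPM (0.82), and the vesicle glycoprotein SV2C rose from 3.54 ± 0.474 to 6.23 ± 0.619 CPM (0.74). Per kilobase of exon, with R1881, the 2 that fell most stood at 17.4 and 73.3 CPM per kb and the 2 that rose most at 0.446 and 0.308 CPM per kb.

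The enolases moved apart. ENO1, the form found in most tissues, fell from 1250 ± 59.4 to 897 ± 30.9 CPM (-0.48, adjusted p = 1.97e-10 in limma), while the muscle form ENO3 rose from 6.86 ± 0.881 to 9.60 ± 0.956 CPM (0.46, adjusted p = 0.000111). Each of the 3 enolases with a row separated the groups without overlap, ENO2 and ENO3 upwards and ENO1 downwards, and ENO4 had no row. Such separation was seen upwards for 17.1% and downwards for 20.1% of all genes tested. Per kilobase, ENO1 remained far above ENO2 with enzalutamide (171 against 13.2 CPM per kb).

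**Figure D3:**
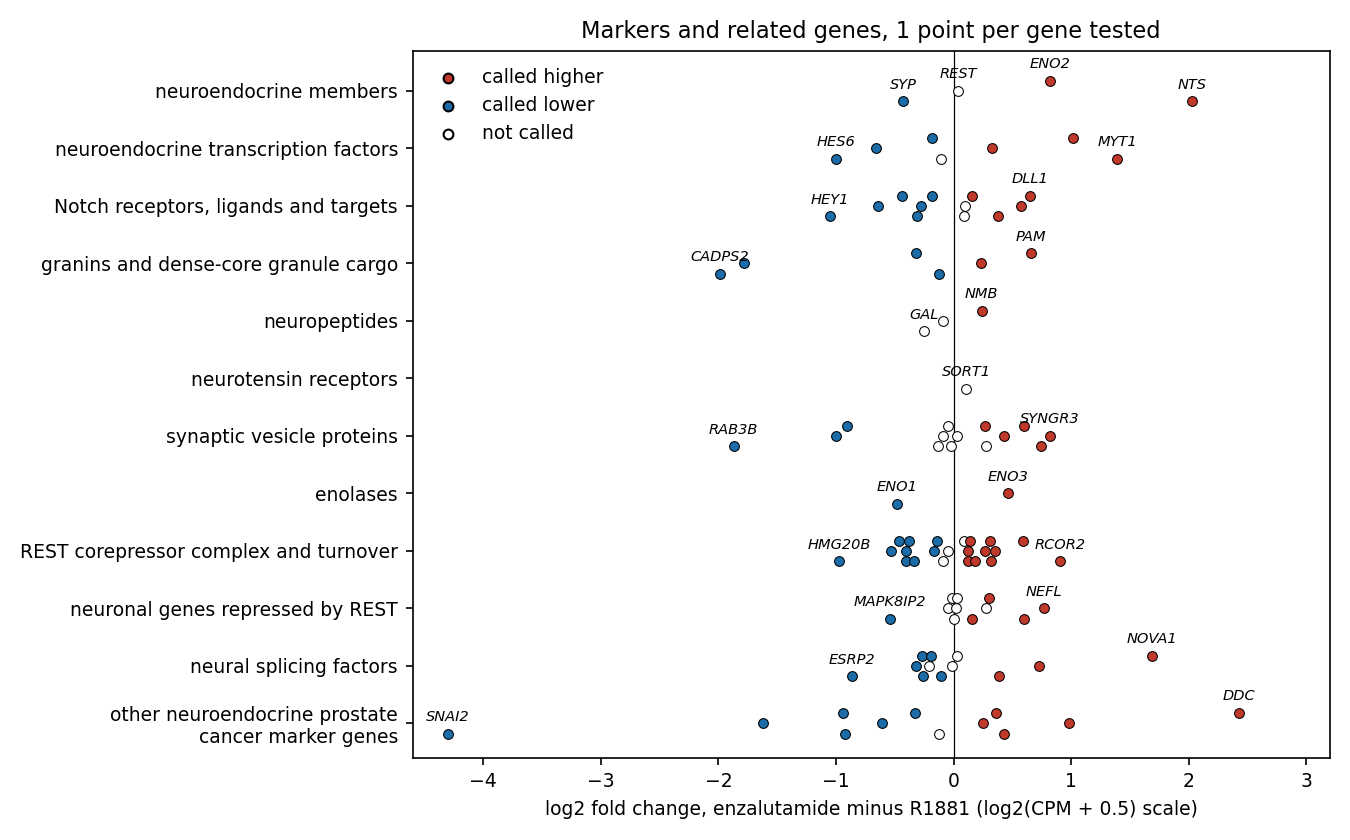
Log2 fold change (x axis, enzalutamide minus R1881, log2(CPM + 0.5) scale) of the 4 markers and of the tested genes of the 11 related lists (y axis), 1 point per gene, red for called higher, blue for called lower and white for not called, with the extreme genes of each list named. In most lists points lie on both sides of 0, with SNAI2 (-4.30) and DDC (2.43) as the extremes.

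All 22 genes of the REST corepressor complex and of REST turnover had a row, and 10 were called higher, 9 lower and 3 not (median 0.02). Over all genes tested, 29.8% were called higher and 32.7% lower. HMG20B, a subunit of the KDM1A complex, fell from 103 ± 20.2 to 52.0 ± 8.25 CPM (-0.97), and CSNK1A1, a kinase that marks REST for degradation, fell from 198 ± 9.12 to 137 ± 4.85 CPM (-0.53). RCOR2, a CoREST family member, rose from 1.22 ± 0.243 to 2.73 ± 0.486 CPM (0.91), and PHF21A, a histone reader of the same complex, rose from 27.3 ± 0.992 to 41.2 ± 1.22 CPM (0.59). The core scaffold RCOR1 was not called (97.0 ± 6.18 against 93.5 ± 4.85 CPM, log2 fold change -0.05, adjusted p = 0.343 in limma), and the sign of its difference changed under 1 of 29 alternatives.

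Of 34 neuronal genes known to be repressed by REST, 23 had no row. Among the 11 tested, 4 were called higher, 1 lower and 6 were not called (median 0.03), against 29.8% of all genes higher and 32.7% lower. NEFL, a neurofilament subunit, rose from 2.63 ± 0.398 to 4.80 ± 0.304 CPM (0.77). MAPK8IP2, a JNK scaffold of neurons, fell from 8.74 ± 1.50 to 5.86 ± 1.09 CPM (-0.54), with overlap between the groups.

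Of the splicing regulators around SRRM4, 12 of 22 were tested, with 3 called higher and 6 lower (median -0.15), and the paralogue SRRM3 had no row. PTBP1, which represses neural exons in non-neuronal cells, fell from 165 ± 12.9 to 132 ± 12.3 CPM (-0.32), while its neural counterpart PTBP2 rose from 17.9 ± 1.38 to 29.8 ± 1.67 CPM (0.73). NOVA1, a neuronal splicing factor, rose from 2.98 ± 0.651 to 10.6 ± 1.15 CPM (1.69), and the epithelial splicing regulator ESRP2 fell from 107 ± 6.52 to 58.3 ± 3.46 CPM (-0.86). For each of these 4 genes, chosen as the extremes of the list, the libraries of the groups did not overlap. In the list 3 of the 12 tested genes lay higher and 3 lower without overlap, against 17.1% and 20.1% of all genes tested. Calls were higher for 3 and lower for 6 of these 12, against 29.8% and 32.7% of all genes tested. Splicing itself was not measured.

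Further genes used as markers of neuroendocrine prostate cancer were called higher in 5 and lower in 6 of 12 tested (median -0.23). All genes tested were called higher in 29.8% and lower in 32.7%. DDC, an enzyme of dopamine and serotonin synthesis, rose from 44.2 ± 1.47 to 241 ± 4.08 CPM (2.43), more than NTS on the log2 scale. MAP2, a neuronal microtubule protein, fell from 72.9 ± 3.74 to 23.4 ± 2.56 CPM (-1.62). SNAI2, a transcription factor of epithelial to mesenchymal transition, fell from 16.3 ± 1.04 to 0.354 ± 0.0733 CPM (-4.30). Of the named genes from the related lists, 32 of 36 kept the same call under all 29 alternatives, the others being CPE, NMB, ONECUT2 and SORT1.

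**Figure D4:**
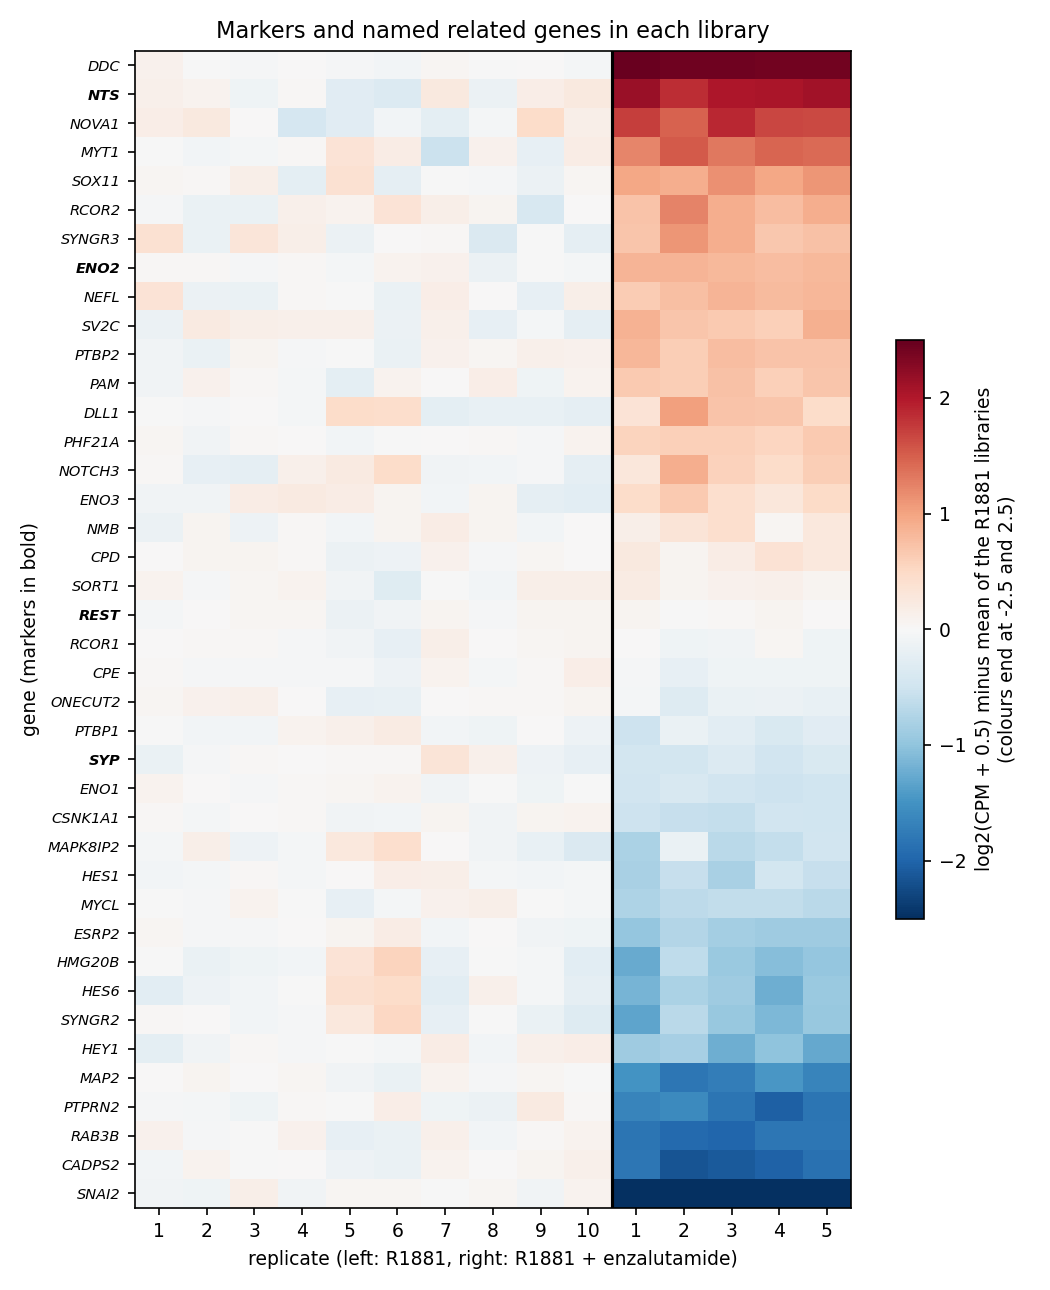
Heat map of log2(CPM + 0.5) minus the mean of the R1881 libraries, for the 4 markers (bold) and 36 named related genes (y axis, ordered by log2 fold change) in each library (x axis, R1881 replicates 1 to 10 left of the line and enzalutamide replicates 1 to 5 right of it). Red is above and blue below the R1881 mean, and the enzalutamide libraries of NTS and ENO2 are red throughout, those of SYP pale blue and those of REST near white.

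To place each marker by its pattern, log2 expression over the 15 libraries was correlated with that of 12163 genes with a mean of at least 5 CPM. These coefficients are descriptions, since the treatment and the library are shared by all genes, and the coefficient of the deviations from the treatment means is given beside each. NTS was most like RP11-713C5.1, a transcript listed by its clone name (r = 0.999, deviations 0.95), and ARHGAP29, a GTPase-activating protein (0.998, deviations 0.95). Among R1881 libraries ARHGAP29 ranged from 103 to 134 CPM and among enzalutamide libraries from 267 to 301 CPM. These ranges show the difference between the groups, and likeness to NTS within them rests on the deviations alone. ARHGAP29 was picked for its high coefficient. ENO2 was most like LINC00680 (0.995, deviations 0.76) and GUSBP1 (0.992, deviations 0.57), the latter a pseudogene with near-identical copies whose level is uncertain. REST, which did not follow the treatment, was most like DHX57 (0.931, deviations 0.93) and APOOL (0.928, deviations 0.93). In all, 1340 genes had a coefficient above 0.9 with NTS, 1135 with ENO2 and 3 with REST. SYP lay under 5 CPM and was left out.

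**Figure D5:**
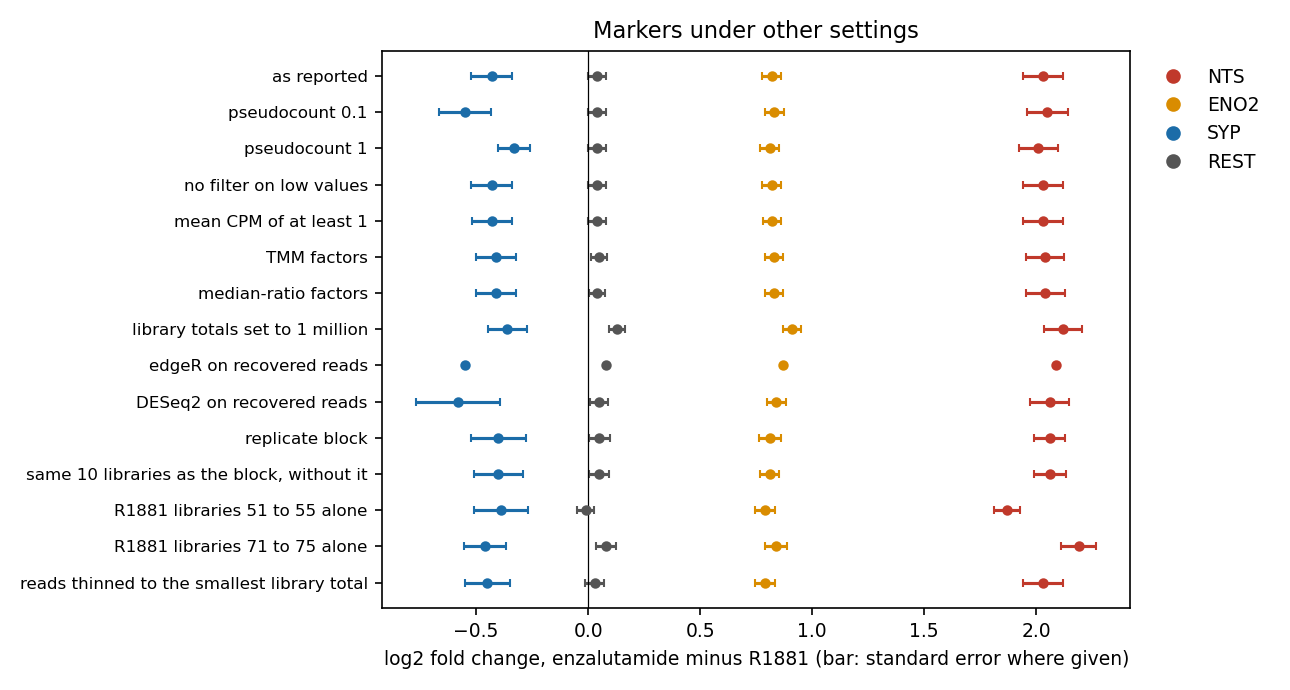
Log2 fold change of NTS, ENO2, SYP and REST (x axis, bars for the standard error where the tool gives one) as reported and under 14 other settings of scaling, filtering, test and choice of libraries (y axis). NTS stayed between 1.87 and 2.19, ENO2 between 0.79 and 0.91 and SYP between -0.58 and -0.33, while REST lay between -0.01 and 0.13.

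Across these settings and the omission of each library, 29 alternatives in all, NTS, ENO2 and SYP kept their direction and their call. The adjusted p of SYP ranged from 0.000266 to 0.0108, that of REST from 0.00364 to 0.900.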

How the data were processed

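Polyadenylated RNA of LNCaP cells was sequenced by the authors as single-end reads of a stranded library kit. Per the submitters' processing notes and the study's methods, bcl2fastq 2.17, STAR, GRCh38 and featureCounts of Subread were used. No annotation, strand setting, gene filter or scaling method is named, these being not given in the sources used here. What the authors deposited is a normalized signal for each gene, described as CPM in the methods. Its columns summed to 1053406 to 1078567 with R1881 and to 985580 to 1008992 with enzalutamide, so it was treated as a signal where the design had assumed CPM. The column sums of the groups did not overlap, so these totals differed with treatment. All values (100.0%) were whole multiples of 1 read within 0.01 reads, and 15830745 to 25416052 reads per library were recovered. SYP rested on 22 to 40 of them per library.

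From these values log2(CPM + 0.5) of the 17046 genes with a mean of at least 0.5 CPM (226 genes lay below) was fitted with limma 3.58.1 (mean-variance trend, treatment only) in R 4.3.3, with Benjamini-Hochberg adjustment over all genes tested and a threshold of 0.05. A two-sided exact permutation test over libraries was run for each marker. The procedure was tested on simulated data. Alternatives were other pseudocounts, filters and scalings, edgeR 4.0.16 (quasi-likelihood) and DESeq2 1.42.0 on recovered reads, a replicate block, R1881 number series, and omission of each library. Positions came from GENCODE v44 and sequences from RefSeq (GRCh38.p14).

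The markers and gene lists were chosen with earlier results of these data known. Named genes are all markers, the 2 called genes of lowest and 2 of highest fold change of each list with a mean of at least 1 CPM, genes tied to a marker by role, the 2 genes most correlated with each marker above 5 CPM, and KLK2, TMPRSS2 and FKBP5. A few of the genes so chosen are not reported here. Calls of the cell type lists are described by counts and summed levels.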

Additional observations from a re-analysis of the deposited data

Results flagged for a closer look

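In groups of 5 or 10 libraries, 3 values stood apart from the rest of their group by a gap that is large against the group's range. The gap was judged on log2(CPM + 0.5) for genes and on reads for depth. It made up 0.492 of the range for SORT1, 0.752 for ENO1 and 0.730 for the reads. The neurotensin-binding receptor SORT1 was at 44.2 CPM in R1881 replicate 6, against 51.6 to 60.6 CPM in the other R1881 libraries. ENO1, the widely expressed enolase, was at 950 CPM in enzalutamide replicate 2, against 873 to 892 CPM in the other enzalutamide libraries, and still below the lowest R1881 library at 1156 CPM. Enzalutamide replicate 5 held 25416052 reads, against 21188661 to 22329140 reads in the others of its group. Chance flags about 1 in 20 groups, and with 92 groups examined about 4.6 would be found by chance. None of the 4 markers had such a library, and no explanation was tested.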

How the results depend on the processing

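NTS, ENO2 and SYP kept their direction and their side of the threshold under all 29 alternatives, and REST under 27. REST reached 0.13 (adjusted p = 0.00364) with library totals set equal, by which the share of higher genes among those called rose from 47.7% to 60.7%, and was -0.01 (adjusted p = 0.900) against the R1881 libraries 51 to 55 alone. With each library left out in turn, log2 fold changes ranged from 1.99 to 2.08 for NTS, 0.80 to 0.83 for ENO2, -0.45 to -0.39 for SYP and 0.02 to 0.05 for REST. A 2-fold limit reduced higher and lower calls to 556 and 714 over all genes, to 1 and 0 among the markers and to 4 and 7 among the related genes. The replicate block used the 5 numbers shared by the groups. With it, log2 fold changes were 2.06 for NTS, 0.81 for ENO2, -0.40 for SYP (adjusted p = 0.0108 in limma) and 0.05 for REST. Without the block the same 10 libraries, an alternative chosen after seeing the data, gave the same log2 fold changes. That had to be so, because each number held a single library of each group. Deviations of libraries of the same number from their group means had correlations of -0.07 to 0.07. Libraries of unlike number were not compared in this way, so whether the numbers mark pairs was not settled. The block changed no call of a marker. Thinning the reads to the smallest library, also chosen after seeing the data, changed none either. In the smaller lists, calls of the 3 tested neuropeptides and of SORT1 changed with scaling or choice of libraries, and 5 rather than 3 synaptic vesicle genes were called lower against the R1881 libraries 51 to 55 alone. The cause of these changes was not tested. Depth limits SYP most, at 22 to 40 reads per library.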

Other observations

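The luminal identity genes did not move as 1 group in these cells. Of 10 tested, 5 were called higher, 4 lower and 1 was not called, against 29.8% of all genes tested called higher and 32.7% lower. Their median log2 fold change was 0.06 against -0.01 over all genes tested. The keratins of luminal epithelium fell, KRT8 from 1581 ± 192 to 349 ± 32.8 CPM (-2.18) and KRT18 from 925 ± 53.0 to 223 ± 11.6 CPM (-2.05). FOLH1, which encodes prostate-specific membrane antigen, rose from 740 ± 37.1 to 1526 ± 69.7 CPM (1.04). The adhesion gene CDH1 was at 809 ± 33.3 and 827 ± 28.2 CPM and was not called (log2 fold change 0.03, adjusted p = 0.434 in limma). These genes were chosen after their values were seen.

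Vesicle and neuroendocrine genes outside the markers ranged from low to high levels. RET, a receptor tyrosine kinase of neuroendocrine cells, rose from 0.528 ± 0.175 to 1.51 ± 0.174 CPM (0.98), and UCHL1, a neuronal deubiquitinase, fell from 1.56 ± 0.410 to 0.590 ± 0.215 CPM (-0.91). AURKA and EZH2, which are also proliferation genes, fell from 32.5 ± 2.48 to 16.7 ± 1.69 CPM (-0.94) and from 33.1 ± 2.73 to 21.6 ± 1.86 CPM (-0.61). SYT4, a synaptotagmin of secretory vesicles, was the vesicle gene of highest level per kilobase (medians of 223 and 229 CPM per kb) and was not called, at 953 ± 61.5 and 974 ± 48.8 CPM (0.03, adjusted p = 0.547 in limma). SYT1 and SYNGR4 lay under the limit of 0.5 CPM on average and were not tested.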
